A study of Drosophila melanogaster with 12 samples.

Results

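The regions described here are glia gaps that hold a GNP nucleosome midpoint: stretches with no called nucleosome in late glial cells in which the map of their earlier counterpart cells places the middle of a nucleosome. A gap leaves at least 150 base pairs (bp) between the end of one glia nucleosome and the start of the next, and the starts of the 2 nucleosomes are at most 500 bp apart. The members were chosen by the positions in both nucleosome maps, so their number and the presence of a GNP midpoint in each are the rule itself and not a finding. There were 65097 such gaps in glia, 12.7% of all glia neighbour distances, and 45272 of them were members.

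The study isolated nuclei from Drosophila melanogaster embryos with INTACT, in which nuclei of chosen cells carry a FLAG-tagged RanGap fusion on their envelope and are pulled out with anti-FLAG beads. The early nuclei came from embryos at 5–7 h after egg laying that carried gcm-Gal4 with UAS-mCDGFP over cyo and, in addition, UAS-3xFLAG-blrp-mCherry-RanGap. The study names them GNP, and their labels read GB or early glial cells. The late nuclei came from embryos at 12–14 h that carried repo-Gal4 together with the same UAS-3xFLAG-blrp-mCherry-RanGap fusion over Tm3B, and are called glia, or late glial cells in the labels. Each cell type has 1 micrococcal nuclease (MNase) library from pooled, formaldehyde-fixed embryos, and 10 ChIP-seq samples of 5 histone marks were not analysed here. Strain, driver, tag background and age all changed together between the maps, so cell type cannot be told apart from them. The study's methods write the parents of the early embryos without the cyo balancer and those of the late embryos over Tm3. The nuclei are those in which gcm or repo drove Gal4. Gcm is the transcription factor that sets glial fate and is also made in blood cell precursors, and Repo is a homeodomain factor of nearly all glia outside the midline. The lists hold positions only, so no marker gene could be checked, the number of reads behind a position is unknown and there is no replicate check.

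A nucleosome is a stretch of DNA wrapped around a core of histones, and neighbouring nucleosomes are joined by linker DNA, which MNase cuts. Stretches without a nucleosome are common at active promoters and enhancers, where bound factors and remodelling enzymes keep histones away. Remodelers of the SWI/SNF family can slide or eject nucleosomes and those of the ISWI family space them evenly, and a site can thus differ between cells in whether a nucleosome is there or in where it lies.

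The members made up 69.5% of the glia gaps (95% Wilson interval 69.2 to 69.9, counting error only). To see what maps of this density share out of register, the GNP map was displaced by 5 kb along each chromosome arm, which keeps its own spacing and number. The displaced map put a midpoint into 49977 gaps, or 76.8% (76.4 to 77.1), which was 7.23 percentage points more than the GNP map in place. Displacements of 1000, 2500, 10000 and -5000 bp all gave a higher share than the map in place as well, by 6.78 to 9.28 points. A GNP midpoint in a glia gap was thus less frequent than in maps out of register, and holding one does not set a gap apart as opened between the stages. The members are therefore called by their rule here. Of the members, 43537 (96.2%) held 1 midpoint, 1734 held 2 and 1 held 3. They contained 47008 midpoints, 9.003% of the 522119 GNP nucleosomes, and covered 8.42 Mb.

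Each gap has 3 slots: the left glia nucleosome, the gap and the right glia nucleosome. A flank was counted as occupied when a GNP midpoint lay inside that glia nucleosome. An extra GNP nucleosome between kept neighbours fills all 3 slots. Shifted GNP nucleosomes can fill them too, since any midpoint inside a glia nucleosome counts. A nucleosome that lies elsewhere can also fill the gap and leave a flank empty. The slot classes alone thus do not tell an extra nucleosome from a shifted one. Both flanks were occupied in 17066 members, 37.7% (37.3 to 38.1), against 31.7% of the displaced members. Of members with both occupied, 26.4% had both GNP midpoints within 20 bp of the glia ones, against 8.35% displaced. A single flank was occupied in 24550 members (54.2%), with the left and the right nearly equal in number at 12310 and 12240, and the displaced share was 56.0%. Neither flank was occupied in 3656 members, 8.08%, against 12.4% displaced. Most members therefore had a GNP midpoint in the gap and an empty flank beside it, in both the true and the displaced comparison. The gaps without a GNP midpoint had both flanks occupied in 90.5% of cases, and 75.3% when displaced.

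**Figure D1:**
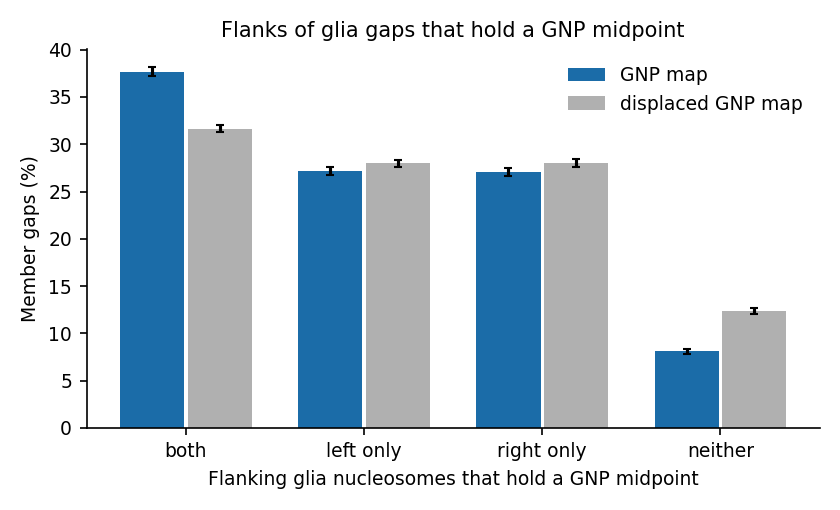
Percent of member gaps (y axis) by which flanking glia nucleosomes hold a GNP midpoint (x axis), for the GNP map in place (blue) and displaced by 5 kb (grey); error bars are 95% Wilson intervals. Both flanks were occupied in 37.7% of members and 31.7% of displaced members, and neither in 8.08% and 12.4%.

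The flanks and the gap of a member together held 2.33 GNP nucleosomes on average, the midpoint that makes it a member included, where glia has 2 by construction. Gaps without a midpoint held 1.90 and all glia gaps 2.20, and the displaced map gave 2.25, 1.61 and 2.10 for the same sets. In 55.4% of members the GNP count over the 3 slots was 2, equal to that of glia. It was 3 in 38.8%, 1 in 5.69% and 4 in 84 members.

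Member gaps were slightly longer than gaps without a midpoint. Their median length was 179 bp (quartiles 163 and 201) against 170 bp (159 and 189), and 26.2% of members against 16.6% of the others were 200 bp or longer. Displaced members had a median of 178 bp with the same quartiles as the members, and 26.3% were 200 bp or longer. All glia gaps had a median of 176 bp and 23.25%. A length above that of the gaps as a whole is thus also given by a map out of register. The displaced gaps without a midpoint were not measured. Members with both flanks occupied were longest by class, with a median of 185 bp, followed by those with neither at 179 bp and those with a single one at 175 bp. The displaced medians were 184, 179 and 176 bp. Members with more than 1 midpoint had a median of 215 bp.

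The share of gaps holding a midpoint rose with length up to 240–259 bp and then fell, while that of the displaced map stayed near its highest level. It was 61.7% at 150–159 bp against 67.9% displaced. It was 81.5% at 240–259 bp against 89.7%. At 300 bp and more it was 65.6% (360 of 549 gaps) against 89.1%. The distance between the maps in place and displaced was thus widest for the longest gaps, 23.5 points, which the GNP map left empty more often. Gaps beyond the upper limit of the rule followed the same course: of 2529 longer gaps, 42.3% held a midpoint, against 88.1% displaced.

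**Figure D2:**
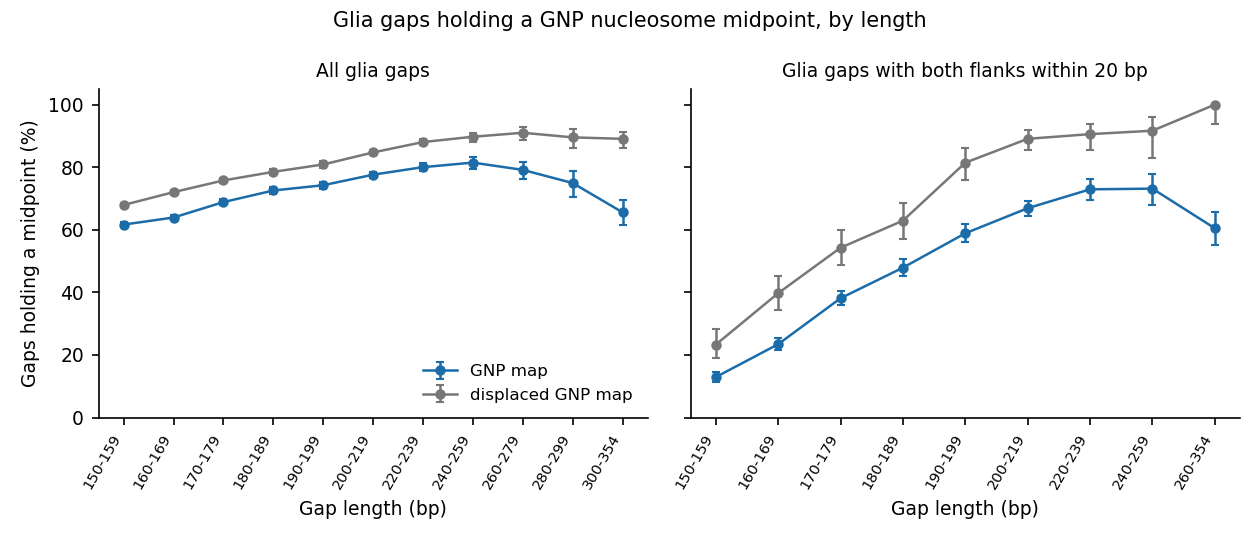
Percent of glia gaps that hold a GNP midpoint (y axis) by gap length in bp (x axis), for all gaps (left) and gaps whose flanks are both within 20 bp in GNP (right), with the GNP map in place in blue and displaced by 5 kb in grey; error bars are 95% Wilson intervals. The map in place lies below the displaced one in every length class, by 23.5 points at 300 bp and more in the left panel.

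The lower limit of the rule does not coincide with a clear step in the data. Just inside the shortest length, 61.0% of the 7034 gaps of 150–154 bp held a midpoint, and just outside, 58.9% of the 7593 gaps of 145–149 bp. At the other end, 9 of 27 gaps in the last 5 bp of the range and 22 of 40 gaps in the 5 bp beyond it held one, too few to show whether there is a step. The cut at the gap ends also falls within a continuous range, with 2664 GNP midpoints in the outermost 5 bp inside a gap and 2408 in the 5 bp just outside. For 2079 members (4.59%) the only midpoint was within 5 bp of a gap end.

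Within the gap the GNP midpoint lay slightly farther from the centre than in displaced members. Over the members with a single midpoint the median distance from the centre was 44.5 bp (quartiles 22 and 66), against 41.5 bp displaced. Only 11.3% were within 10 bp of the centre (12.5% displaced). The GNP nucleosome fitted wholly inside the gap in 9551 members, 21.9% (22.4% displaced). In the rest it overlapped a flanking glia nucleosome by a median of 38 bp, against 34 bp displaced. In most members, then, the GNP nucleosome straddled the edge of the glia gap. The lower and the upper side of the gap along the arm were used alike, at 50.3 and 49.5%.

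The position depended on the flanks, here again over members with a single midpoint. With both flanks occupied the GNP midpoint was central, at a median of 26.5 bp from the gap centre (29 displaced), and the nucleosome lay wholly inside the gap in 41.1% (35.7% displaced). With only the left flank occupied, 91.3% of midpoints were on the upper side, away from that flank, and with only the right flank occupied, 91.6% were on the lower side. The displaced shares were 85.6 and 86.6%. In both of these classes the median distance from the centre was 57.5 bp. With neither flank occupied it was 53.5 bp against 40 bp displaced, so these midpoints kept to the sides of the gap. In gaps of 300 bp and more the median distance from the centre was 85.5 bp against 38.5 bp displaced, and 50.6% of the nucleosomes lay wholly inside against 77.6%. Even where the gap was long enough to take a whole nucleosome with room to spare, the GNP nucleosome was thus closer to an edge than in the displaced map.

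Where a single flank was occupied, the GNP midpoint in the gap was close to the empty one. Its distance to the glia midpoint of the empty flank had a median of 104 bp (88 and 129), against 112 bp displaced. In 72.8% of these members the distance was 126 bp or less, so that the GNP nucleosome in the gap overlapped the glia nucleosome of the empty flank by at least 20 bp, against 63.3% displaced. The GNP nucleosomes of the gap and the occupied flank were a median of 205 bp apart.

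The count of GNP midpoints around the gap centre shows these arrangements together. Counted per 100 members and per 10 bp, and averaged over both sides, it had a mean of 5.61 from the centre to 70 bp, fell to 1.89 at 120 bp and peaked at 9.25 at 160 bp, the place of the flanking glia nucleosomes. The displaced map had 5.73 over the centre and only 4.35 over 150 to 180 bp, where the map in place had 7.80. Glia gaps without a midpoint had more there, a mean of 11.7 and a peak of 15.6 at 160 bp. The flank peak was thus not particular to members. The counts over the gap are set near 1 midpoint per member by the rule in both maps, whereas those at the flanks are not. With both flanks occupied the centre reached 10.0 against 8.97 displaced. With neither occupied it was 1.94 at the centre and 10.4 at 70 bp. This count takes in gaps with more than 1 midpoint, and the class had a mean of 1.30 midpoints per gap (1.27 displaced). From the centre to 70 bp the displaced map was also highest at 70 bp, at 7.62, and lowest at 30 bp, at 4.50. From 700 to 1000 bp away the counts were 4.58 in place and 4.55 displaced.

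**Figure D3:**
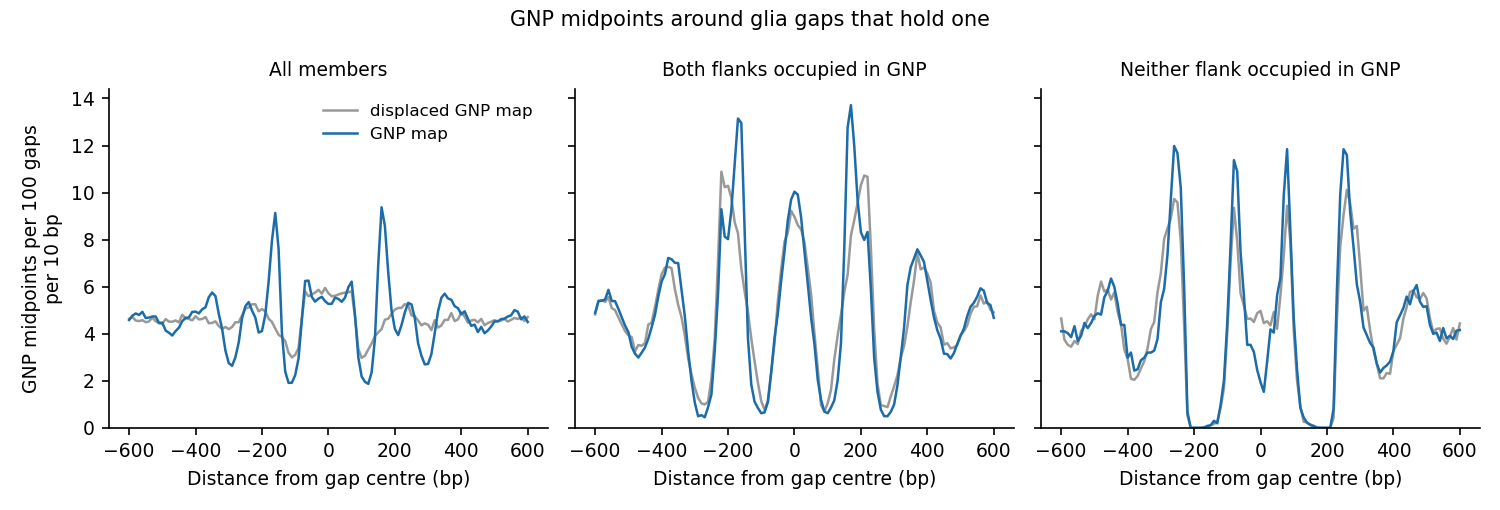
GNP midpoints per 100 gaps per 10 bp (y axis) by distance from the gap centre in bp (x axis), for all members, members with both flanks occupied and members with neither, with the map in place in blue and displaced by 5 kb in grey. Over all members the blue line peaks at 9.25 at 160 bp, at the flanks. The mean over 150 to 180 bp is 7.80 in place and 4.35 displaced. Gaps without a midpoint, not drawn, have 11.7 there. The level over the gap itself is set by the rule in both maps.

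The flanking nucleosomes lay farther from the gap in GNP than in glia. Taking a shift as positive where the GNP midpoint was nearer to the gap, the 34132 flanks of members with both occupied had a median shift of -10 bp (quartiles -43 and 3), and 67.9% lay farther away, 30.0% nearer and 2.13% at the same position. The displaced flanks had a median of -25 bp and 70.6% farther away. A shift away from the gap is thus also given by the displaced map. The sizes differed more: the median absolute shift was 18 bp in place and 35 bp displaced, and 52.9% of flanks were within 20 bp against 29.3%. Over all 510664 glia nucleosomes, 72.5% held a GNP midpoint and 41.2% had one within 20 bp. The displaced shares were 64.7 and 18.1%. The 52.9% counts occupied flanks only, whereas the 41.2% includes nucleosomes that hold no GNP midpoint. Those shares therefore have unlike bases, and they do not show that flanks of members were better kept than other nucleosomes.

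The flanks of a gap did not move as a pair in one fixed way. Both were farther from the gap in 7065 members with both occupied, 41.4%, and both were nearer in 806, or 4.72%. In 8476, 49.7%, they were shifted the same way along the arm. The displaced shares were 44.8, 3.36 and 50.5%. The distance between the flanking midpoints was wider in GNP than in glia by a median of 33 bp (8 and 58), against 38 bp displaced. A lone occupied flank shifted little in either direction, with median shifts of 2 bp on the left and 1 bp on the right and a median absolute shift of 14 bp on both sides, against 34 bp displaced. In gaps without a midpoint the shift went the other way, with a median of 6 bp towards the gap in place and 33 bp displaced.

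**Figure D4:**
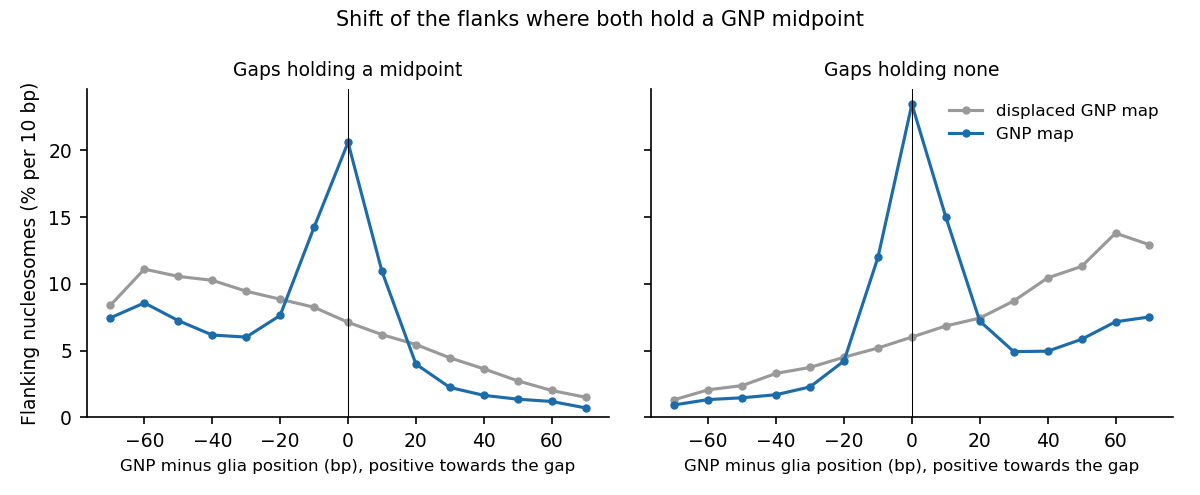
Percent of flanking glia nucleosomes per 10 bp (y axis) by the shift of the GNP midpoint from the glia midpoint in bp, positive towards the gap (x axis), in gaps with both flanks occupied that hold a midpoint (left) or none (right), with the map in place in blue and displaced by 5 kb in grey. The map in place peaks at no shift in both panels, and its median is -10 bp in members and 6 bp in gaps without a midpoint.

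The departure from the share over all glia nucleosomes faded within a few nucleosomes. For the second nucleosome outward, 44.1% had a GNP midpoint within 20 bp on the sides of members with both flanks occupied. On the empty side of members with a single occupied flank the share was 32.7%, and it was 30.3% where neither was occupied. By the third nucleosome outward the shares were 41.4, 40.4 and 41.0%, close to the 41.2% of all glia nucleosomes. The displaced map had the same order at a lower level, with 20.4, 16.4 and 15.0% at the second nucleosome and 19.2, 18.0 and 17.8% at the third. Glia nucleosomes next to member gaps were spaced like those next to other gaps: the adjacent glia distance had a median of 212 bp beside members and 213 bp beside gaps without a midpoint, and 210 bp over all glia neighbours.

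The members nearest to the label of a newly opened gap are those whose flanks both stayed in place. Among all glia gaps, 10745 (16.5%) had a GNP midpoint within 20 bp of both flanking glia midpoints, against 2085 (3.20%) displaced. Of these, 4513 held a GNP midpoint between them, 42.0% (41.1 to 42.9), against 63.4% (61.3 to 65.4) displaced and 62.6 to 65.0% over the 5 displacements tried. They made up 9.97% of the members. Within 5 bp the share with a midpoint was 39.4%, and within 40 bp 45.4%, both again below the displaced 60.4 and 62.8%. A glia gap with kept flanks was therefore more often without a GNP midpoint than with one.

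The share among kept gaps rose steeply with length. It was 12.9% at 150–159 bp and 73.2% at 240–259 bp, then 60.5% at 260 bp and more. The displaced values were 23.3 and 91.7%, and at 260 bp and more all 57 displaced gaps held a midpoint. The 4509 kept gaps with a single midpoint had a median length of 193 bp (177 and 214), against 169 bp for kept gaps without one, and the displaced medians were 197 and 167 bp. In them the GNP midpoint was a median of 12.5 bp from the centre, and 79.0% of the nucleosomes lay wholly in the gap. The displaced values were 11.5 bp and 81.2%, so the central position is also given by the displaced map. The GNP neighbour distances across these gaps had a median of 169 bp (158 and 186), and 59.1% were 160 to 200 bp. Over all GNP neighbours the median was 201 bp and that share was 40.6%. The displaced map gave a median of 173 bp and 64.4% at 160 to 200 bp, and the short distances follow from fitting a GNP nucleosome between kept flanks.

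Exchanging the cell types gave a picture of the same kind. Of 61357 GNP gaps, 68.2% held a glia midpoint (76.6% displaced). With both flanks within 20 bp it was 3423 of 9752, 35.1% (34.2 to 36.1), against 59.3% displaced. Kept gaps that were filled in the other map were thus more numerous in glia by 1090. With every 46th GNP nucleosome left out, which leaves 510771 against 510664 in glia, the difference was -428. A nucleosome left out can itself open a GNP gap with kept flanks, so the thinning favours this change. Removal at fixed steps also need not resemble a map with fewer calls. The thinning thus cannot settle the direction, and no direction between the cell types is read from the difference.

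The clearest single cases were members with GNP nucleosomes at the same position as both glia flanks and a central one between them. Across all arms 7 members had both flanks at the same position, and in 5 of these the GNP midpoint was within 10 bp of the gap centre. Unmoved flanks were not particular to members. Where both flanks were occupied, 2.13% of flanks were at the same position in members and 2.55% in gaps without a midpoint. Positions are those of the dm3 build, as the lists give them. On arm X the gap at 407871–408075, 204 bp long, held a GNP nucleosome at 407899–408045 with its midpoint 1 bp below the centre (-1 bp). Another gap of 204 bp, at X 1773029–1773233, held a GNP nucleosome at 1773065–1773211, with the midpoint 7 bp above the centre. In these gaps the GNP nucleosome fits inside with linker on each side. The gap of 182 bp at 3R 17953209–17953391 held a GNP nucleosome at 17953233–17953379, 6 bp from the centre. The gap of 182 bp at X 3760174–3760356 held one at 3760200–3760346, 8 bp from the centre. The shortest, 169 bp at 2L 13292682–13292851, held one at 13292700–13292846, 6.5 bp from the centre. In all 5 the GNP map reads as an array of 3 nucleosomes of which glia lacks the middle call. Allowing 10 bp for each flank and for the midpoint, there were 1025 such members among 45272. No displaced count was made for them. Of the 5493 glia gaps with both flanks within 10 bp, 39.7% held a GNP midpoint anywhere in the gap, against 62.1% displaced.

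The longest members show how varied the rest were. At X 16751384–16751738, which has the greatest length the rule allows, both flanks were occupied but the GNP midpoints were nearer to the gap by 52 and 43 bp, and the nucleosome in the gap, at 16751543–16751689, was 55 bp above the centre. At 2L 22734277–22734627, 350 bp, the flanks were within 3 and 10 bp and a GNP nucleosome at 22734371–22734517 was 8 bp below the centre (-8 bp). At 3L 19480385–19480733, 348 bp, the flanks were farther away by 5 and 38 bp in GNP (shifts of -5 and -38 bp), and the nucleosome at 19480611–19480757 overlapped the right glia flank. Of these 3, only the gap on 2L had both flanks within 20 bp and a GNP nucleosome wholly inside. Of the longest members with neither flank occupied, 2L 1310805–1311152 (347 bp) held 1 GNP nucleosome, at 1311017–1311163. Those at 2L 22727881–22728228 (347 bp) and X 9111536–9111880 (344 bp) each held 2 midpoints, of GNP nucleosomes at 22727842–22727988 and 22728126–22728272 and at 9111521–9111667 and 9111797–9111943. In these 2 the GNP pair reached over both edges of the glia gap.

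Member gaps were spread along the arms without strong clustering. The nearest other member was a median of 1014 bp away, against 915 bp for displaced members, which are more numerous, and 746.5 bp among all glia gaps. Another member lay within 1000 bp for 49.4% of members, against 54.4% displaced and 64.5% for all gaps. In windows of 10 kb the members numbered 3.76 on average, from none in 433 of 12025 windows to 12. Their variance was 0.971 times the mean, and 1.09 times for displaced members. In windows of 100 kb the ratio was 1.32, against 1.65 displaced and 1.30 for all glia gaps, so members varied along the arms about as the gaps did.

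A gap was followed directly by a further gap about equally often whether or not it was a member, in 13.4% of members and 14.1% of the others. Where a gap followed, it was itself a member in 70.7% of cases after a member and 65.0% after a gap without a midpoint, and the displaced shares were 78.9 and 69.2%. Most members, 37102, stood alone, and 3870 runs of 2 or more adjoining member gaps held 18.0% of the members (20.2% displaced). The longest runs had 5 gaps, of which there were 5 on all arms together. The first of the 3 named, at 2L 4717590–4718990, had gaps of 153 to 174 bp, 7 GNP midpoints over its span and both flanks occupied at 1 gap. At 3L 14551560–14553107 the gaps were 153 to 242 bp, with 8 GNP midpoints and 2 such gaps. At 3L 15267666–15269198 they were 171 to 218 bp, with 6 GNP midpoints and none. A run of 5 members holds at least 5 GNP midpoints by the rule.

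The named windows of 10 kb are those with the most members, and are given as a description. At 3R 9710000–9720000 12 of 16 gaps were members, 6 of them with both flanks occupied, and the displaced map gave 13. At 2L 5300000–5310000 11 of 13 gaps were members and 9 displaced. At 2L 6260000–6270000 11 of 12 were members, 3 with both flanks occupied, and 7 displaced. These windows held 47, 50 and 44 GNP nucleosomes and 39, 40 and 41 glia nucleosomes. Over windows of 100 kb with at least 20 gaps, the share of gaps that were members had a median of 70% (65.3 and 74.6) and ranged from 34.7 to 89.2%. It was below the displaced share in 880 of 1192 windows, 73.8%.

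Outside the gap itself the members were not richer in GNP nucleosomes than in glia ones. Within 1000 bp of the gap centre there were on average 9.26 GNP and 8.50 glia midpoints, a difference of 0.764. The gap alone adds a mean of 1.04 GNP midpoints and no glia midpoint by the rule, and without it the difference was -0.274, against -0.357 for displaced members. It was 0.0951 with both flanks occupied, -0.418 with 1 and -1.04 with neither. The displaced values were 0.061, -0.429 and -1.10. An empty flank lacks a GNP midpoint by definition, which lowers the classes that have one. Gaps without a midpoint had a difference of 0.216, and -0.753 when displaced. Few members overlapped a gap of the GNP map of the same length range: 9.74% did, against 57.1% of gaps without a midpoint, 14.5% of displaced members and 33.9% of displaced gaps without one. A GNP midpoint in the gap leaves little room for such an overlap, so this contrast largely restates the rule. Among members it was 1.25% where both flanks were occupied and 52.0% where neither was, and the displaced map gave 1.31 and 51.8%.

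The 5 larger arms were alike, and arm 4, the small and largely heterochromatic chromosome, was lower. The numbers of members were 8618 on 2L, 7895 on 2R, 9269 on 3L, 10606 on 3R, 8427 on X and 457 on arm 4. On the 5 larger arms 68.9 to 70.7% of gaps were members, and 373 to 380 members lay on each Mb. On arm 4 the share was 62.6% (59.0 to 66.0), with 345 per Mb. Displacement moved the share up on every arm, by 6.82 points on X to 8.63 points on arm 4. The displaced share was also lowest on arm 4, at 71.2%.

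Arm 4 also had the lowest share of members with both flanks occupied, 31.7% (27.6 to 36.1), where the larger arms had 36.8 to 38.8%. It was also lowest on arm 4 in the displaced map, at 26.2% against 31.0 to 32.5%. Its median gap length was 183 bp against 178 or 179 bp, and the midpoint was a median of 51.0 bp from the centre against 44.0 to 45.5 bp. The displaced distance was 43.5 bp on arm 4 and 41.0 to 42.5 bp on the others. Among kept gaps the share with a midpoint was 39.6 to 43.6% on the larger arms and 35.3% on arm 4 (48 of 136 gaps, 27.8 to 43.6), so for these gaps the interval of arm 4 overlaps those of the others. The displaced kept share on arm 4 rests on 17 gaps. The displaced shares exceeded those in place on all 6 arms in both sets of gaps.

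**Figure D5:**
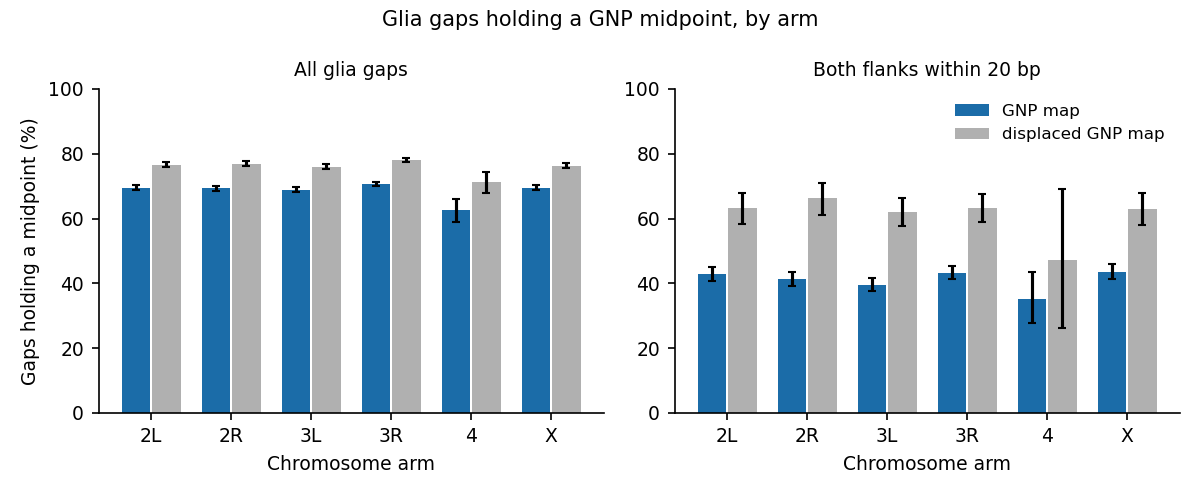
Percent of glia gaps holding a GNP midpoint (y axis) by chromosome arm (x axis), for all gaps (left) and gaps with both flanks within 20 bp in GNP (right), with the map in place in blue and displaced by 5 kb in grey; error bars are 95% Wilson intervals. Arm 4 is lowest, at 62.6% in the left panel, and the displaced bars are higher than those in place on every arm.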

How the data were processed

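Per the labels and the study's methods, the authors aligned MNase-seq reads to dm3 with Bowtie 0.12.7, allowing up to 2 mismatches, and predicted nucleosomes from uniquely mapped reads with GeneTrack (version and settings not given in the sources used here). bedtools is also named in the submitters' processing notes. Each deposited list gives chromosome, start and end (positions in bp) in 3 columns, with no score, count or signal, so depth is unknown. End minus start was 146 bp throughout, and the midpoint was taken as start plus 73 bp. Whether positions count from 0 or 1 is not given, which leaves 1 bp of uncertainty.

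Gaps, members, flank slots, shifts, runs and windows were computed with Python 3.11.15, numpy 2.4.6, pandas 2.3.3, scipy 1.17.1 and matplotlib 3.10.9. The member and slot counting was tested on a copy of the glia map with a central nucleosome planted in each of 3000 gaps. Cases with both flanks, only the right flank and neither flank occupied were planted, and none with only the left. The displaced map was wrapped within the span of calls of each arm. The members, classes and alternatives were chosen with earlier results of these data known. Kept flanks (both within 20 bp) were added after seeing the data. With 1 library per cell type and members chosen on both maps, no test was run. Wilson intervals (95%) cover counting error only, and neighbouring gaps share nucleosomes and are not independent. Named regions followed a fixed rule, with arm 2R left out: the 3 fullest 10 kb windows, the 3 longest runs, the 5 members with the closest flanks and a midpoint within 10 bp of the centre, and the 3 longest members with both flanks and with neither occupied. Sequence, GC content and gene annotation were not used, since no dm3 genome was at hand.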

Additional observations from a re-analysis of the deposited data

How the results depend on the processing

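Values that moved by more than their counting interval are given here, in the order share of gaps that are members, displaced minus observed share (points), median length, median distance from the centre, share with both flanks occupied and share with another member within 1000 bp, as far as each moved. With gaps of 200 bp or more they were 78.2%, 8.52, 219 bp, 47.0% (both flanks) and 14.4%. With gaps of any length from 150 bp they were 68.5%, 8.67, 180 bp and 45.5 bp. With a nucleosome 1 bp longer the share with both flanks was 38.3%. With midpoints at least 20 bp from either end they were 54.0%, 8.02, 181 bp, 35.5 bp, 46.5% and 40.01%. With every 46th GNP nucleosome left out, the share was 68.1%, both flanks 36.0% and another member within 1000 bp 48.6%. The difference between glia and GNP in the number of kept gaps filled in the other map changed sign, from 1090 to -428. Leaving out GNP nucleosomes itself favours that change. Without gaps centred in a GNP distance over 500 bp the share was 69.9% and the difference 9.78. Displacements of 1000 and 2500 bp gave differences of 9.28 and 8.55. With flank midpoints within 20 or 40 bp, 9.97 and 17.8% of members had both flanks occupied. Another member lay within 500 bp for 20.7% and within 2000 bp for 78.8%. Of 53 comparisons, 25 stayed within the interval, 27 moved and 1 changed sign; the displaced share exceeded the observed one in each that compared them. Counting midpoints at either gap end, and the alternatives on kept flanks, were chosen after seeing the data. Depth is unknown, a missing call can be a place with few reads, and no replicate shows how far calls vary. The cause of each move was not tested. The comparisons needing a dm3 genome were not run. No paired analysis was possible because each cell type has 1 library and the labels carry no replicate numbers.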
